A study of Saccharomyces cerevisiae W303 with 16 samples.

Results

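The transcripts described here were nearly absent from unstressed yeast and present after eRF1 was inactivated by heat. Of 6587 annotated mature mRNAs in the transcriptome used for RNA-Seq, 947 had a mean level under 1 TPM (the length-corrected share of a library's transcripts, as RSEM scales it) in the 2 libraries of SUP45 at 25°C. Of these, 218 reached a mean of at least 5 TPM in the 2 libraries of sup45-ts at 37°C. These 218 members, chosen by those mean TPM values alone, are 23.02% of the silent transcripts and 3.31% of all the mRNAs. The other 729 silent transcripts stayed lower, with a median of 0.745 TPM in sup45-ts at 37°C.

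The study compared a yeast strain with the temperature-sensitive allele sup45-2, called sup45-ts, with its wild-type counterpart, called SUP45. Both are haploid MATa strains of the W303 background and share its standard mutations in CAN1, URA3, TRP1, LEU2, HIS3 and ADE2. Both were grown in rich glucose medium at 25°C, moved to fresh medium, and then kept for 30 min at either 37°C or, as a mock shift, 25°C. The 4 groups, sup45-ts and SUP45 at 37°C and the same strains at 25°C, each have 2 RNA-Seq libraries and ribosome profiling data that the authors combined over replicates. Each strain is 1 genotype, and nothing beyond the replicate numbers says how separately the cultures were grown, so p-values measure the spread between these libraries only.

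SUP45 encodes eRF1, the factor that recognizes stop codons and triggers release of the finished protein. When it fails, ribosomes read through stop codons and new protein synthesis falters. Many yeast genes are kept off in glucose-grown haploid cells. Genes for the use of other carbon sources are repressed while glucose is present, through Mig1 and its control by the Snf1 kinase. Genes of meiosis and spore formation are repressed outside sporulation, by Ume6 and Sum1 among others. Subtelomeric genes are often kept low by chromatin. Heat by itself turns on a broad stress program through Hsf1 and Msn2/Msn4.

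Total expected counts ran between 107324550 and 153654244 per RNA-Seq library. The MATa-specific genes were expressed in all libraries: STE2, the receptor for alpha factor, lay between 240 and 360 TPM. Of the 4 MATalpha-specific genes, the alpha factor genes MF(ALPHA)1 and MF(ALPHA)2 lay between 0.17 and 3.32 TPM and SAG1, for alpha-agglutinin, between 4.16 and 13.6 TPM; the other, STE3, is a member. SUP45 mRNA was at 199 and 180 TPM in sup45-ts at 37°C, against 299 and 303.02 TPM in SUP45 at 37°C. For a temperature-sensitive allele this level is no check of the labels. The median TPM over all mRNAs was 46.0 to 51.3 in the 37°C libraries and 22.2 to 24.5 in the 25°C libraries. TPM is a share of each library, so a limit of 5 TPM at 37°C stands lower relative to the other mRNAs than the same limit would at 25°C. With every library scaled to the same median, an alternative added after the data were seen, 129 transcripts met both limits instead of 218.

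**Figure D1:**
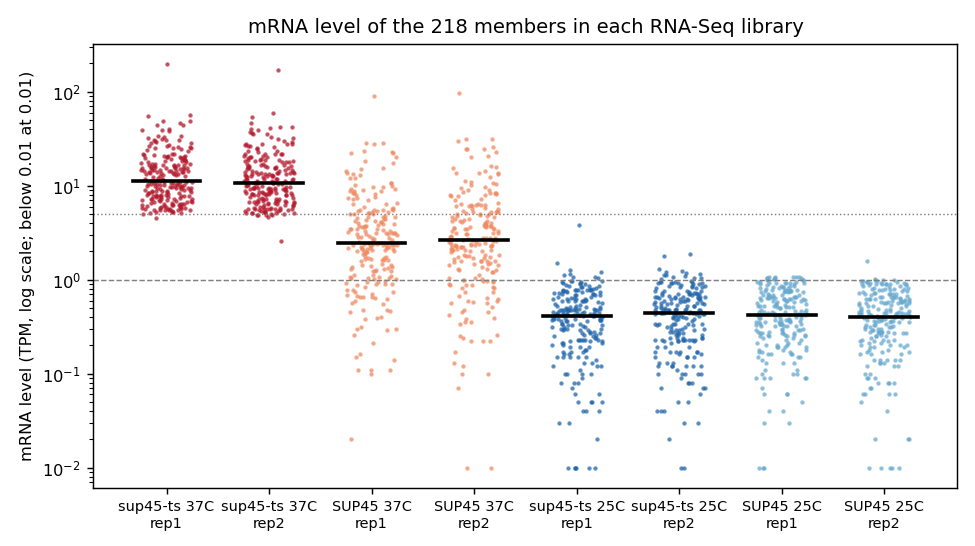
mRNA level in TPM (log scale) of each of the 218 members in the 8 RNA-Seq libraries, with 1 point per member and a black bar at the median. The dashed line marks 1 TPM and the dotted line 5 TPM; the medians are 11.1 and 10.7 TPM in sup45-ts at 37°C, 2.44 and 2.64 TPM in SUP45 at 37°C, and 0.41 to 0.44 TPM in the 25°C libraries.

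Together the members made up 0.339% and 0.316% of all TPM in the sup45-ts 37°C libraries, against 0.103% and 0.110% in the SUP45 37°C libraries. At 25°C they made up about 0.01% in either strain, with summed levels of 98.6 and 103 TPM in sup45-ts and 103 and 96.8 TPM in SUP45. The median of the members' mean levels was 11.3 TPM in sup45-ts and 2.54 TPM in SUP45 at 37°C, and 0.43 TPM in sup45-ts and 0.41 TPM in SUP45 at 25°C. The first and the last of these values follow from the rule. The rule did not use the middle ones, but sup45-ts at 25°C was close to SUP45 at 25°C, which the rule held under 1 TPM.

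The limits of the rule cut through a continuous range. Just inside the limit of 1 TPM in SUP45 at 25°C were PCK1, for the gluconeogenic enzyme PEP carboxykinase, at 0.99 TPM, and the small open reading frame YMR315W-A at 0.985 TPM. Just outside it were DAL1, for allantoinase, at 1.03 TPM and YLL017W at 1.035 TPM. At the limit of 5 TPM in sup45-ts at 37°C, BIO5, a transporter of biotin metabolism, was inside at 5.015 TPM and SMA1, a spore membrane gene, at 5.065 TPM. SRL4 at 4.985 TPM and YBR134W at 4.995 TPM were outside.

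The most abundant member was SIP4 (chromosome X, 265926 to 268415, + strand, R64), which encodes a zinc-cluster activator of gluconeogenic genes that acts with the Snf1 kinase. It had 197 and 169 TPM in sup45-ts at 37°C, against 10.80 and 10.85 TPM in SUP45 at 37°C. At 25°C it had 0.44 and 0.47 TPM in sup45-ts, against 0.45 and 0.46 TPM in SUP45. No library at 37°C overlapped one at 25°C, and at 37°C the strains did not overlap either. The second was GID10 (chromosome VII, 620921 to 621799, − strand), for a substrate receptor of the GID ubiquitin ligase, with 57.0 and 59.0 TPM in sup45-ts at 37°C, against 8.02 and 8.31 TPM in SUP45 at 37°C.

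Below these came genes of several kinds. YPT53, for a Rab-type GTPase of endosomal traffic, had 44.4 and 39.8 TPM in sup45-ts at 37°C, against 7.64 and 7.26 TPM in SUP45 at 37°C. PHM7, for a membrane protein of unclear function, had 44.4 and 46.6 TPM, against 13.2 and 14.2 TPM. TKL2, the minor transketolase of the pentose phosphate pathway, had 40.4 and 38.8 TPM in sup45-ts, against 15.6 and 15.7 TPM in SUP45 at that temperature. These 3 genes were at 0.37 to 0.99 TPM in every 25°C library. MOH1, a Yippee-family gene, was closer between the strains, with 49.4 and 42.0 TPM in sup45-ts at 37°C, against 28.6 and 31.3 TPM in SUP45 at 37°C.

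The level with heat alone is that in SUP45 at 37°C. Of the 218 members, 60 had a mean of at least 5 TPM there, 110 had between 1 and 5 TPM, and 48 stayed under 1 TPM. The SUP45 libraries at 37°C were both above the SUP45 libraries at 25°C for 207 members, both below for 2 (ATR2 and YHL006W-A, chosen after their values were seen), and overlapped them for 9. No such count was made over all transcripts, of which 38.4% were higher and 37.4% lower by the edgeR fit described below. The median ratio of TPM in SUP45 37°C to SUP45 25°C was 6.35 over the 217 members with a level above 0 at 25°C. The median TPM of all mRNAs also stood higher at 37°C, and on TMM-scaled counts the members' median log2 fold change was 1.78, against 0.01 over all transcripts. The rule held the SUP45 25°C level under 1 TPM, so these ratios are a description too. In sup45-ts at 25°C, 206 members stayed under 1 TPM and the other 12 were between 1 and 5 TPM.

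Between the strains at 37°C, both sup45-ts libraries were above both SUP45 libraries for 204 members, below for 9, and overlapped for 5. Such a count was not made over all transcripts. By the edgeR fit described below, 39.5% of all transcripts were higher in sup45-ts at 37°C and 39.4% lower. The median ratio of sup45-ts 37°C to SUP45 37°C was 4.42, with quartiles of 2.24 and 9.25. It was at least 2 for 174 members and at least 10 for 49. Over all 5696 mRNAs with at least 5 TPM in sup45-ts at 37°C the same median was 0.991. Fewer cells that make a transcript and less of it per cell cannot be told apart in such bulk samples. The rule asked for a high level in sup45-ts at 37°C, so this ratio is a description of the chosen transcripts and no test of them.

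**Figure D2:**
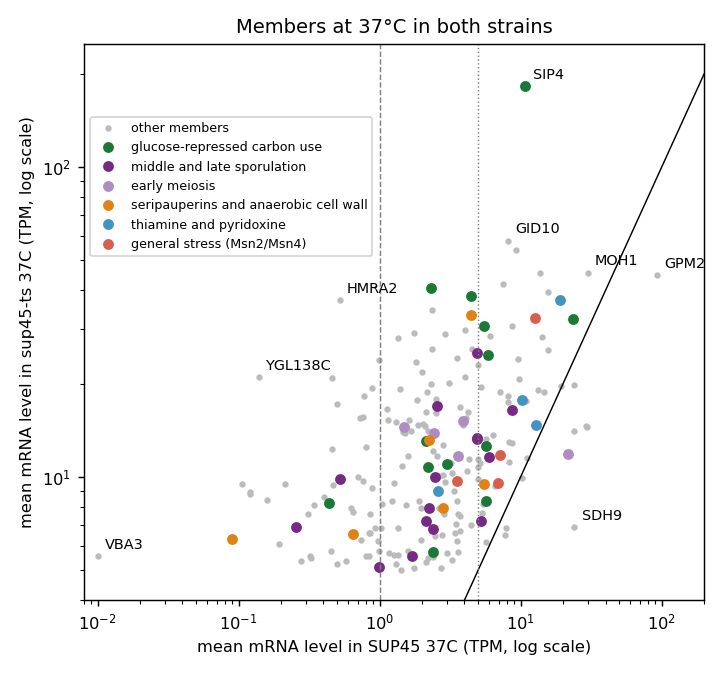
Mean mRNA level of each member in sup45-ts at 37°C (vertical, TPM, log scale) against its mean in SUP45 at 37°C (horizontal, TPM, log scale), with members of 6 gene lists in colour and the line of equal levels. Most points lie above the line; GPM2 and SDH9 are among the 10 with a higher mean in SUP45, and 48 points lie left of the dashed line at 1 TPM.

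Counts were also fitted with edgeR's quasi-likelihood test over all 8 RNA-Seq libraries, with p-values adjusted over 6767 transcripts by the Benjamini-Hochberg method and a threshold of 0.05. All 218 members were among those tested, since the filter on low counts ran over all 8 libraries. Only the comparison of SUP45 37°C with sup45-ts 25°C sets against each other the 4 libraries that did not choose the members. For this reason only its p-values are read for them. The estimate of spread behind these p-values still used all 8 libraries, those of the rule included. Strain and temperature differ together in it, and their parts cannot be told apart from that comparison alone. At 25°C the strains themselves were close: 9 of the 6767 transcripts (0.133%) passed in sup45-ts 25°C against SUP45 25°C (877 at an unadjusted p under 0.05; 118 by DESeq2).

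In the libraries that did not choose them, most members were higher in SUP45 37°C than in sup45-ts 25°C. Their low level in sup45-ts 25°C is tied to the rule, as the strains were close at 25°C. The counts below are therefore not independent of it. Of the 218, 179 were higher (82.1%) and 4 lower, where 39% of all transcripts were higher, 37% lower and 76% called in all. With only the 4 libraries compared in the filter and the fit, 209 members were tested, so 9 passed the filter only with the libraries that chose them included; 177 of the 209 were higher and 4 lower, and of all 6625 transcripts tested 2724 were higher and 2536 lower. The members' median log2 fold change was 1.77, with a range of -3.23 to 7.64, against 0.02 over all transcripts. Of the 563 silent transcripts outside the rule that could be tested, 164 were higher and 73 lower, with a median log2 fold change of 0.34. Without scaling factors, that is on plain library sizes, the median of all transcripts moved to 0.66, the share of higher transcripts among those called moved to 80.4% in place of 51.3%, and 196 members were higher and 3 lower. Leaving out the 31 members that have a closely similar copy in the genome or an unspliced row left 152 higher and 2 lower of 187.

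**Figure D3:**
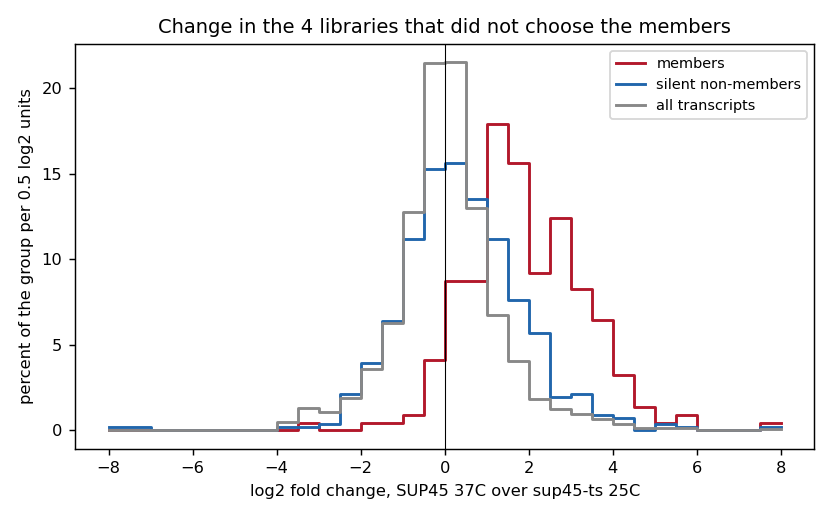
Log2 fold change in SUP45 37°C over sup45-ts 25°C (horizontal) for the members, the silent transcripts outside the rule and all transcripts tested, as the percent of each group per step of 0.5 (vertical; values beyond 8 in the end steps). The members' curve is shifted right, with a median of 1.77 against 0.34 for the other silent transcripts and 0.02 for all.

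The response in these libraries followed the level in SUP45 at 37°C, as the same libraries set both. All 60 members with at least 5 TPM there were higher than in sup45-ts 25°C. Of the 110 with 1 to 5 TPM, 101 were higher and 9 did not pass. Of the 48 under 1 TPM, 18 were higher, 4 lower and 26 did not pass. Over all transcripts 39% were higher and 37% lower, so the share of higher ones among these 48 was near that of all transcripts.

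The remaining comparisons are given as a description. In sup45-ts 37°C against SUP45 37°C, 200 members were higher and 7 lower by the same criterion, where 39.5% of all transcripts were higher, 39.4% lower and 78.9% called in all. In SUP45 37°C against SUP45 25°C, 179 were higher and 3 lower, where 38.4% of all were higher, 37.4% lower and 75.8% called in all. In sup45-ts 37°C against sup45-ts 25°C, 217 were higher, where 44.6% of all were higher and 86.5% called in all. In sup45-ts 25°C against SUP45 25°C, 1 member passed, NCA3 (named after its values were seen), a gene linked to mitochondrial ATP synthase expression, with 1.49 and 1.77 TPM in sup45-ts against 0.91 and 0.77 TPM in SUP45; of all transcripts 0.118% were higher there and 0.0148% lower. No member passed without either sup45-ts 25°C library or without SUP45 25°C replicate 2, and 2 passed without SUP45 25°C replicate 1. All 4 share libraries with the rule, so these counts are not evidence about the members.

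Of the gene lists, that of genes repressed by glucose had members with the highest summed level. Of 27 genes in a list of them, 19 were under 1 TPM in SUP45 at 25°C and 13 were members. Summed over these 13, the level at 37°C was 437 and 403 TPM in sup45-ts, against 71.0 and 76.7 TPM in SUP45. At 25°C it was 6.44 and 6.60 TPM in sup45-ts, against 6.85 and 6.27 TPM in SUP45. All 13 were higher in SUP45 37°C than in sup45-ts 25°C, as were 26 of the whole list of 27 and 39% of all transcripts, with a median log2 fold change of 1.68 over the list against 0.02 over all transcripts. Much of the sum was SIP4, which rose by a log2 fold change of 3.63 ± 0.07 (SE) in that comparison (adjusted p = 1.21e-09, edgeR).

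The other members of this group came from several routes of alternative carbon use. Galactose is broken down by the enzymes of GAL7 and GAL10, which lie side by side on chromosome II (274427 to 275527 and 276253 to 278352, − strand). GAL7 had 39.2 and 37.8 TPM in sup45-ts at 37°C, against 4.19 and 4.75 TPM in SUP45 at 37°C, and 0.44 to 0.49 TPM in all 25°C libraries. GAL10 had 13.5 and 12.5 TPM in sup45-ts at 37°C, against 1.96 and 2.30 TPM in SUP45 at 37°C. Both rose in SUP45 37°C over sup45-ts 25°C, with log2 fold changes of 2.40 ± 0.13 and 1.43 ± 0.13 (SE; adjusted p = 1.06e-07 and 5.64e-06, edgeR).

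Gluconeogenesis, the glyoxylate cycle and fatty acid use were represented by single genes. PCK1 had 13.5 and 11.7 TPM in sup45-ts at 37°C, against 5.58 and 5.81 TPM in SUP45 at 37°C. MLS1, for malate synthase of the glyoxylate cycle, had 11.2 and 10.9 TPM in sup45-ts, against 2.84 and 3.17 TPM in SUP45. POT1, for the thiolase of peroxisomal fatty acid breakdown, had 10.4 and 11.1 TPM, against 2.10 and 2.28 TPM in SUP45. CRC1, the mitochondrial carnitine carrier, had 26.5 and 23.03 TPM in sup45-ts, against 5.55 and 6.25 TPM in SUP45, and SFC1, the succinate-fumarate carrier, had 5.85 and 5.62 TPM, against 2.03 and 2.73 TPM. In none of these 5 genes did the strains overlap at 37°C.

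Some genes of the same list stood nearly as high with heat alone. HXT5, a hexose transporter of slow-growing cells, had 32.7 and 32.1 TPM in sup45-ts at 37°C, against 22.4 and 24.4 TPM in SUP45 at 37°C. CAT8, the activator of gluconeogenic genes that lies upstream of SIP4 in the pathway, had 8.42 and 8.33 TPM, against 6.00 and 5.29 TPM. HXT13, a hexose transporter family member, was at the other extreme, with 8.02 and 8.39 TPM in sup45-ts at 37°C, against 0.46 and 0.42 TPM in SUP45 at 37°C. ADH2, the alcohol dehydrogenase that consumes ethanol, had 39.5 and 42.2 TPM, against 2.31 and 2.29 TPM. ADH2, HXT13 and 24 other members have closely similar copies in the genome, so reads could have been split among copies.

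**Figure D4:**
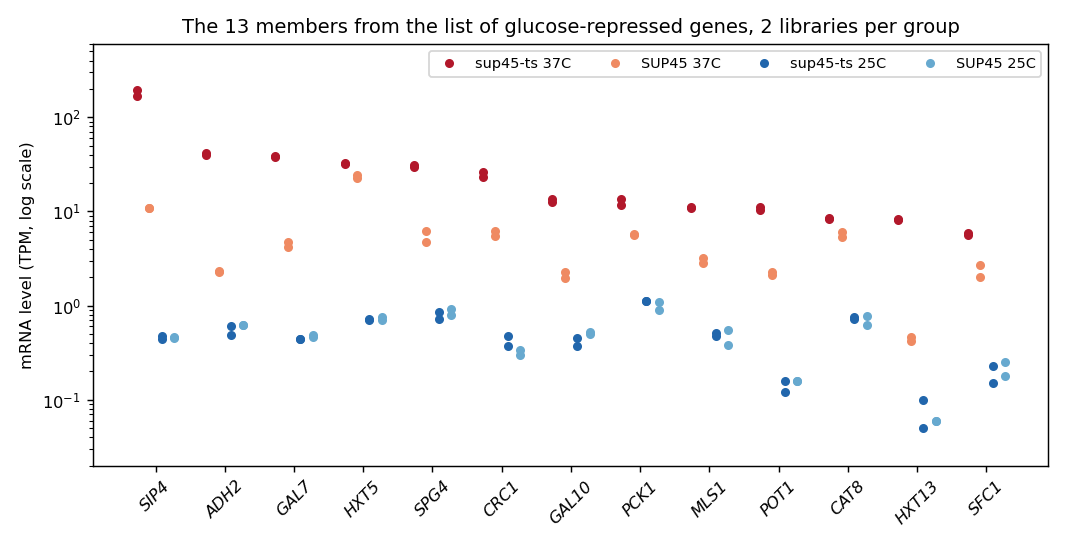
mRNA level (TPM, log scale) of the 13 members from the list of glucose-repressed genes, with 2 points for the 2 libraries of each group, in the order sup45-ts 37°C, SUP45 37°C, sup45-ts 25°C and SUP45 25°C within each gene. The sup45-ts 37°C points are above all others in every gene, by the most in ADH2 and HXT13 and by the least in HXT5 and CAT8.

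Genes of spore formation made the longest list of members. Of 37 middle and late sporulation genes, 22 were silent in SUP45 at 25°C and 15 were members. Their summed level at 37°C was 172 and 155 TPM in sup45-ts, against 49.2 and 50.6 TPM in SUP45. At 25°C it was 6.06 and 6.36 TPM in sup45-ts, against 6.89 and 6.89 TPM in SUP45. Of the 15, 13 rose in SUP45 37°C over sup45-ts 25°C; over the whole list 27 were higher and 5 lower, with a median log2 fold change of 1.399, where 39% of all transcripts were higher and 37% lower. SGA1, the sporulation glucoamylase (chromosome IX, 178004 to 179653, + strand), was the highest, with 25.0 and 25.1 TPM in sup45-ts at 37°C, against 4.64 and 5.19 TPM in SUP45 at 37°C.

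Genes for the spore wall and the prospore membrane were among the 15. OSW2, needed for the outer spore wall, had 17.7 and 16.1 TPM in sup45-ts at 37°C, against 2.32 and 2.78 TPM in SUP45 at 37°C. MPC54, of the meiotic spindle pole plaque, had 17.2 and 15.6 TPM, against 8.37 and 8.99 TPM. SPO20, a SNARE of the prospore membrane, had 14.1 and 12.6 TPM in sup45-ts, against 5.08 and 4.68 TPM in SUP45. SPS2 and SPO77 were the 2 of the 15 that did not pass in SUP45 37°C against sup45-ts 25°C. SPS2 had 7.28 and 6.52 TPM in sup45-ts at 37°C, against 0.26 and 0.25 TPM in SUP45 at 37°C.

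Early meiotic genes were fewer. Of 25, 13 were silent and 5 were members, and all 5 rose in SUP45 37°C over sup45-ts 25°C. Over the whole list 19 were higher and 1 lower, where 39% of all transcripts were higher and 37% lower. MEK1, a kinase of the meiotic checkpoint, had 15.6 and 13.5 TPM in sup45-ts at 37°C, against 1.46 and 1.51 TPM in SUP45 at 37°C and 0.08 to 0.10 TPM in the 25°C libraries. REC8, the meiotic cohesin subunit, had 15.1 and 12.7 TPM, against 2.33 and 2.53 TPM in SUP45. HED1, a gene specific to meiosis, went the other way between the strains, with 13.4 and 10.3 TPM in sup45-ts at 37°C, against 20.2 and 22.9 TPM in SUP45 at 37°C. ZIP2 and MSH4, of meiotic crossing over, did not overlap between the strains at 37°C either. ZIP2 had 16.8 and 13.5 TPM in sup45-ts, against 3.73 and 4.03 TPM in SUP45, and MSH4 had 12.6 and 10.7 TPM, against 3.20 and 4.03 TPM.

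Defining genes of sporulating diploids that are not members were read as a check, and most but not all were higher in sup45-ts than in SUP45 at 37°C. IME2, the meiotic kinase, had 36.8 and 33.3 TPM in sup45-ts at 37°C, against 5.89 and 5.94 TPM in SUP45 at 37°C and 1.33 to 1.81 TPM at 25°C. IME1, the master activator of meiosis, had 4.68 and 4.35 TPM in sup45-ts, against 2.91 and 2.98 TPM in SUP45, and 0.42 to 0.57 TPM at 25°C. NDT80, the activator of middle genes, had 4.30 and 3.39 TPM, against 2.35 and 2.77 TPM, and 0.53 to 0.73 TPM at 25°C. DIT1, of the spore wall, had 23.2 and 19.5 TPM in sup45-ts, against 4.93 and 5.65 TPM in SUP45, and 1.48 to 1.58 TPM at 25°C. SMK1, a kinase of spore wall formation, had 3.57 and 3.33 TPM, against 1.44 and 1.73 TPM, and 0.54 to 0.68 TPM at 25°C. The sporulation gene SPS4 had 18.5 and 14.9 TPM in sup45-ts, against 1.6 and 1.45 TPM in SUP45, but stood at 13.0 to 14.7 TPM at 25°C. Levels were lower in sup45-ts for 2 genes. The sporulation kinase gene SPS1 was at 2.73 and 2.81 TPM, against 3.49 and 3.64 TPM in SUP45, and 2.33 to 3.01 TPM at 25°C. RIM4, for an RNA-binding regulator of meiosis, had 10.01 and 10.17 TPM in sup45-ts, against 30.6 and 28.6 TPM in SUP45, and 0.79 to 1.22 TPM at 25°C.

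Mating-type genes contributed STE3, the receptor for a-factor that MATa cells normally do not make. It had 24.3 and 21.5 TPM in sup45-ts at 37°C, against 4.68 and 5.34 TPM in SUP45 at 37°C, and 0.39 to 0.43 TPM at 25°C in either strain. It rose by a log2 fold change of 2.65 ± 0.13 (SE) in SUP45 37°C over sup45-ts 25°C (adjusted p = 6.11e-08, edgeR). Of the 4 MATalpha-specific genes, 2 rose and 2 fell in that comparison, and of 8 MATa-specific genes none rose and 6 fell. Over all transcripts 39% were higher there and 37% lower. In sup45-ts 37°C against SUP45 37°C, all 4 MATalpha-specific genes were higher (median log2 fold change 2.24) and 5 of the 8 MATa-specific ones lower (median -0.74). Over all transcripts 39.5% were higher and 39.4% lower. The rule used the sup45-ts 37°C libraries, so the higher level of STE3 there is a description. The part of either list in the level of STE3 was not tested. HMRA2, from the silent mating-type cassette at HMR on chromosome III (293179 to 293538), had 46.7 and 27.7 TPM in sup45-ts at 37°C, against 1.04 and 0 TPM in SUP45 at 37°C. At 25°C it had 3.78 and 1.88 TPM in sup45-ts, against 0.51 and 0 TPM in SUP45. Its sequence also stands at the mating-type locus of MATa cells, so the copy that gave the reads is not known.

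Of 30 seripauperins and other cell wall genes of anaerobic growth, 22 were silent in SUP45 at 25°C and 6 were members. PAU5 led, with 34.0 and 32.8 TPM in sup45-ts at 37°C, against 4.56 and 4.34 TPM in SUP45 at 37°C. DAN1, for a cell wall mannoprotein made without oxygen, had 6.22 and 6.42 TPM in sup45-ts at 37°C, against 0.11 and 0.07 TPM in SUP45 at 37°C. Over the list, 11 of 28 tested were higher in SUP45 37°C than in sup45-ts 25°C and 4 were lower, a share of higher genes near the 39% of all transcripts. PAU24 was among the 4 members that fell in that comparison, by 1.00 on the log2 scale (adjusted p = 0.00635, edgeR), and it did not pass without sup45-ts 25°C replicate 1, where it fell by 0.70 (adjusted p = 0.063; over all alternatives 0.00377 to 0.063). Members of this family are close in sequence.

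Thiamine and pyridoxine genes and general stress genes stood closer to the level of heat alone, with median ratios of sup45-ts 37°C to SUP45 37°C of 1.84 and 2.10 against 4.42 over all members. The list of 15 thiamine and pyridoxine genes held 4 silent ones, all of them members. SNO1, of vitamin B6 synthesis, had 16.6 and 12.8 TPM in sup45-ts at 37°C, against 12.1 and 13.6 TPM in SUP45 at 37°C, which overlap. THI12 and THI5, of thiamine precursor synthesis, had 37.9 and 36.4 TPM and 18.2 and 17.2 TPM in sup45-ts at 37°C, against 17.4 and 20.8 TPM and 9.65 and 10.8 TPM in SUP45 at 37°C. All 4 rose in SUP45 37°C over sup45-ts 25°C, as did 11 of the 15 and 39% of all transcripts. Of 34 general stress genes 5 were silent at 25°C and 4 were members: GRE1, XBP1, HSP32 and HSP33. GRE1, a hydrophilin, had 29.5 and 35.6 TPM in sup45-ts at 37°C, against 12.2 and 13.2 TPM in SUP45 at 37°C. XBP1, a transcriptional repressor made under stress, had 9.31 and 10.04 TPM, against 3.50 and 3.53 TPM.

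The remaining lists gave a few members each. Maltose use gave MAL12 and MAL32, for near-identical maltases. MAL12 had 11.8 and 10.3 TPM in sup45-ts at 37°C, against 5.23 and 5.0 TPM in SUP45 at 37°C. Oxidative and drug stress gave SRX1, for sulfiredoxin, and GEX2, a glutathione exchanger. DAL4, for the allantoin permease, PRM2, a pheromone-regulated membrane protein gene, and BSC4 of the stop codon bypass list were the others. BSC4 had 5.66 and 5.46 TPM in sup45-ts at 37°C, against 0.87 and 0.81 TPM in SUP45 at 37°C. No member came from the 25 heat shock chaperone genes, none of which was silent, nor from the lists of DNA damage genes, MATa-specific genes, hexose transporters other than HXT5 and HXT13, COS genes, flocculins or Y' helicases. Of the silent genes among those transporters and the Y' helicases, 8 in each list, none met the limit of 5 TPM.

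As many as 10 members had a higher mean in SUP45 than in sup45-ts at 37°C. The lowest ratio of sup45-ts to SUP45 was that of SDH9, a paralogue of the flavoprotein subunit gene of succinate dehydrogenase, with 7.34 and 6.44 TPM in sup45-ts at 37°C, against 23.4 and 24.7 TPM in SUP45 at 37°C. GPM2, a homologue of phosphoglycerate mutase, had 48.8 and 40.7 TPM, against 90.1 and 96.1 TPM. LSO1, of the response to low iron, had 11.1 and 17.97 TPM in sup45-ts, against 28.0 and 31.5 TPM in SUP45. YHR140W had 15.4 and 13.8 TPM, against 28.3 and 29.9 TPM. In all 4 the strains did not overlap. In SUP45 37°C over sup45-ts 25°C, LSO1 had the largest log2 fold change among the members, 7.64 ± 0.44 (SE; adjusted p = 1.93e-07, edgeR), and GPM2 had 5.81 ± 0.11 (adjusted p = 8.49e-10).

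At the other end stood members that heat alone hardly touched. VBA3, of a family of vacuolar transporters, had 5.68 and 5.42 TPM in sup45-ts and 0.02 and 0 TPM in SUP45 at 37°C, and was listed at 0 TPM in all 4 libraries at 25°C; VBA5, also a member, is a closely similar copy. YGL138C, an open reading frame of unknown function on chromosome VII, had 23.4 and 18.7 TPM in sup45-ts at 37°C, against 0.16 and 0.12 TPM in SUP45 at 37°C, and 0.08 to 0.13 TPM at 25°C. In SUP45 37°C against sup45-ts 25°C it did not pass (log2 fold change -0.46 ± 0.30 SE, adjusted p = 0.23, edgeR). YDL159W-A, YDL034W and YMR031W-A lay between 8.44 and 9.51 TPM in sup45-ts at 37°C, and at 0.10 to 0.14 TPM in SUP45 at 37°C.

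The 4 members that fell in SUP45 37°C relative to sup45-ts 25°C were HMRA2, PAU24, YHL006W-A and ATR2. ATR2, a homologue of the multidrug transporter gene ATR1, lies next to CAT8 on chromosome XIII (824729 to 826351, − strand). It had 20.9 and 20.9 TPM in sup45-ts at 37°C, against 0.47 and 0.45 TPM in SUP45 at 37°C. At 25°C it had 0.65 and 0.75 TPM in sup45-ts, against 0.80 and 0.67 TPM in SUP45. In SUP45 37°C over sup45-ts 25°C it fell by 1.53 on the log2 scale (SE 0.14, adjusted p = 5.31e-06, edgeR). HMRA2 fell by 3.23 with an SE of 0.90 (adjusted p = 0.00871), on levels that differed widely between replicates.

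Position in the genome was read from RefSeq (R64) coordinates, with the right end of each chromosome taken as the end of its last listed gene. Of the 185 with an entry, 30 (16.2%) lay within 25000 bases of a chromosome end, against 5.63% of all 5913 mRNAs with an entry and 36.8% of the silent transcripts outside the rule. Of the 30, 26 were higher in SUP45 37°C than in sup45-ts 25°C and 2 lower, a share of higher ones near the 82.1% of all members, where 39% of all transcripts were higher. Among 183 members annotated as protein-coding, 42 (22.95%) had another member as a direct neighbour, against 5.51% of the other protein-coding genes and 8.997% of the other silent ones. Neighbouring pairs include GAL7 with GAL10 and ATR2 with CAT8, each transcribed in the same direction.

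A more abundant gene close upstream on the same strand was found about as often for the members as for other genes. Among the 183, 43 (23.5%) followed such a gene at a distance under 1000 bases, with the upstream gene higher in sup45-ts at 37°C. Among 4588 other genes in the same range of TPM the share was 22.04%, and among the other silent genes it was 20.8%. One example is YMR315W-A, which starts 436 bases after YMR315W, a gene at 547 TPM in sup45-ts at 37°C. Another is MOH1, 708 bases after SEC17, of vesicle fusion, at 104 TPM.

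RefSeq has no entry for 33 members (15.1%), open reading frames of the kind often called dubious. The share was 10.2% over all mRNAs and 59.4% over the silent transcripts outside the rule. The 33 had a median of 8.35 TPM in sup45-ts and 1.22 TPM in SUP45 at 37°C, and of 0.25 TPM in sup45-ts and 0.32 TPM in SUP45 at 25°C. The highest were YDL026W, with 30.3 and 27.7 TPM in sup45-ts at 37°C, against 2.74 and 3.07 TPM in SUP45 at 37°C, and YOR333C, with 28.4 and 27.6 TPM, against 1.11 and 1.57 TPM. Of the 33, 22 rose in SUP45 37°C over sup45-ts 25°C and 1 fell, where 39% of all transcripts were higher and 37% lower. The libraries were made with a stranded kit, but none of the sources names the strand setting of the counting, so reads from an overlapping gene on the other strand could be among those counted.

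Ribosome footprints mark the stretches of mRNA that ribosomes occupied. The footprint tables count frame 0 footprints in the coding sequence (CDS), leaving out its first 15 and last 33 nucleotides, with 1 value per group, so intervals are exact Poisson ones at 95% and cover counting error only. Of the members, 216 were in these tables. At 37°C, at least 10 CDS footprints were counted for 148 of them in sup45-ts, out of a table total of 5650894, and for 107 in SUP45, out of 16619436. At 25°C the members with as many were 37 in sup45-ts, out of 21528362 footprints, and 29 in SUP45, out of 17262357. No footprint was found for 31 members in sup45-ts and 53 in SUP45 at 37°C, and for 83 in sup45-ts and 79 in SUP45 at 25°C.

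ADH2 and PDC6 must be set aside before the footprints are summed. ADH2 had 3822 footprints in sup45-ts and 33577 in SUP45 at 37°C. At 25°C it had 31589 in sup45-ts and 19459 in SUP45, where its mRNA was at 0.62 TPM. Its sequence is close to that of ADH1, an abundant fermentation gene, as PDC6 is to PDC1, so the copy that gave these footprints is uncertain. Without these genes, members at 37°C took 16296 CDS footprints in sup45-ts (0.288% of the table) and 15462 in SUP45 (0.0930%). At 25°C they took 1605 in sup45-ts (0.00746%) and 1306 in SUP45 (0.00757%). With both genes the sums were 20401 in sup45-ts and 49542 in SUP45 at 37°C, and 33873 in sup45-ts and 21606 in SUP45 at 25°C.

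SIP4 had the most footprints after ADH2 in sup45-ts at 37°C. It had 1737 (1656 to 1821) there, against 260 (229 to 294) in SUP45 at 37°C. At 25°C it had 7 in sup45-ts and 9 in SUP45. PHM7 had 722 (670 to 777) in sup45-ts at 37°C, against 439 (399 to 482) in SUP45 at 37°C. GAL7 had 161 (137 to 188), against 8 (3.5 to 15.8). MEK1 had 78 (61.7 to 97.3) in sup45-ts, against 3 (0.6 to 8.8) in SUP45 at that temperature. ATR2 had 109 (89.5 to 132) in sup45-ts, against 4 (1.1 to 10.2) in SUP45. The table of SUP45 at 37°C holds more footprints in all, so these differences are smaller than those in share.

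Footprints per mRNA had a lower median over all members than over all transcripts. CDS footprint density (RPKM) per TPM of mRNA in sup45-ts at 37°C had a median of 0.527 over the 216 members, with quartiles of 0.174 and 0.911, against 0.724 over 5691 transcripts with at least 5 TPM. Of the members, 77 were above that median of all. Among transcripts with at least 10 footprints the median was 0.747 over 148 members and 0.747 over all 5439 such transcripts. That cut acts on the footprints themselves and kept 68.5% of the members, against 95.6% of all. The equal medians therefore cannot decide whether the members differ. The 183 members with a RefSeq entry had a median of 0.616, against 0.711 over 4588 other RefSeq transcripts in the same range of TPM, not matched in level within it. The 33 without an entry had a median of 0.0535; 3 of them had at least 10 footprints and 14 had none. SIP4 was at 0.602 and GAL7 at 0.616.

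**Figure D5:**
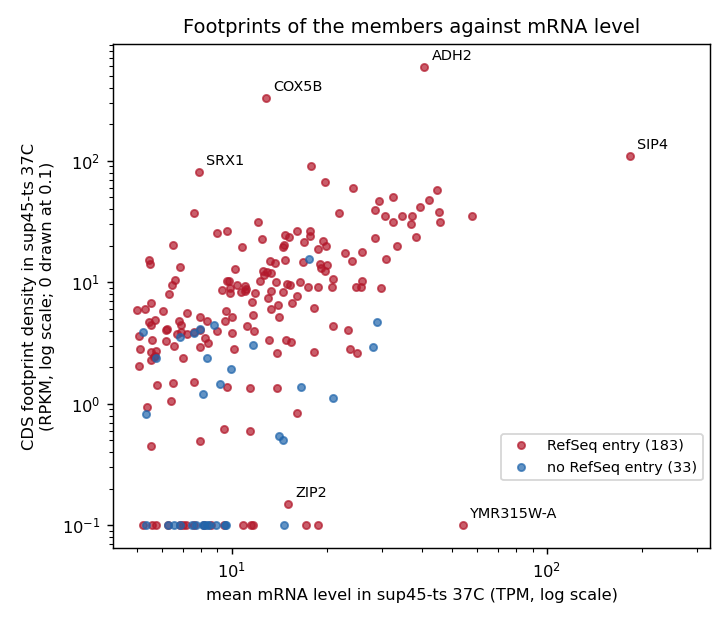
CDS footprint density in RPKM (vertical, log scale, 0 drawn at 0.1) against mean mRNA level in TPM (horizontal, log scale) for 216 members in sup45-ts at 37°C, red with a RefSeq entry and blue without. The members without an entry lie low, with a median of 0.0535 RPKM per TPM against 0.616 for those with one.

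Some abundant members had almost no footprints. YMR315W-A had none in sup45-ts at 37°C (interval 0 to 3.7) at 54.5 and 53.4 TPM, although its coding sequence is short. YDL026W had 8 and YOR333C had 7. ZIP2 had 2 (0.2 to 7.2) at 16.8 and 13.5 TPM, with 2 in SUP45 at 37°C. SGA1 had 27 (17.8 to 39.3) in sup45-ts at 37°C, against 33 (22.7 to 46.3) in SUP45 at 37°C, though its mRNA was at 25.0 and 25.1 TPM against 4.64 and 5.19 TPM. OSW2, at a lower mRNA level, had 294 (261 to 330), against 83 (66.1 to 103).

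Among the members, footprint density per TPM of the mature mRNA row was highest for COX5B, the hypoxic subunit of cytochrome c oxidase, whose gene has an intron. Its spliced row had 16.2 and 9.44 TPM in sup45-ts at 37°C, against 9.0 and 8.32 TPM in SUP45 at 37°C, and 865 CDS footprints, a density of 25.7 RPKM per TPM. Its unspliced row held a mean of 449 TPM in sup45-ts and 287 TPM in SUP45 at 37°C, and of 21.2 TPM in sup45-ts and 20.4 TPM in SUP45 at 25°C. COX5B as a gene was therefore not silent at 25°C. The density of 25.7 RPKM per TPM divides by the spliced row alone. The paper's transcriptome for footprints held only spliced transcripts, so the gene's footprints had no unspliced row to fall on. That value is therefore not a density per mRNA of the whole gene. With all rows of a gene summed, 215 of the members stayed under 1 TPM in SUP45 at 25°C.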

How the data were processed

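RNA-Seq libraries of rRNA-depleted total RNA (2 per group) and ribosome footprints were used. RNA-Seq reads were assigned by the authors with RSEM to a transcriptome built on S288C R64. The deposited expected counts, TPM and FPKM are RSEM estimates per transcript. The deposited footprint counts come from reads trimmed with cutadapt, aligned with Bowtie and, after removal of PCR duplicates, combined over replicates by the authors; footprints were 20 to 23 and 27 to 32 nucleotides long. The deposited CDS RPKM is scaled for CDS length and for the footprints of the table. Per-library footprint tables and the columns on extensions past the stop codon were not used.

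Members were taken from mean TPM by the rule given above. Expected counts were rounded and fitted with edgeR 4.0.16 in R 4.3.3 (TMM, filterByExpr, quasi-likelihood). The fit was also run on simulated data with 200 changed transcripts. False calls were 7% for SUP45 37°C against sup45-ts 25°C and 8.173% for sup45-ts 37°C against SUP45 37°C. Both are above the rate that the threshold on adjusted p-values aims at. Changes of 1 on the log2 scale were recovered in 89.69% and 92.05% of cases, in the same order. Intervals used scipy 1.17.1. DESeq2 1.42.0, other scalings, filters, limits, a replicate block and leaving out each library were alternatives. Names and coordinates came from the RefSeq R64 table, which lists 185 members; strand was read from the locus name. Members and gene lists were chosen with earlier results of these data known. Genes were named by rule: the 10 members highest in sup45-ts 37°C, the 6 highest in SUP45 37°C, the 5 largest and 5 smallest differences between these groups, the 6 with the most footprints, the 3 most abundant with fewer than 10 footprints, those next to the limits, and listed members. Promoter and protein sequences were not analysed here.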

Additional observations from a re-analysis of the deposited data

Results flagged for a closer look

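ATR2 moved in opposite directions with heat in the strains: its log2 fold change was -1.53 in SUP45 37°C over SUP45 25°C, with both libraries lower, while both sup45-ts libraries were higher at 37°C than at 25°C. YHL006W-A did the same, with -1.38. The difference between the strains was not tested in either gene, and the rule selected for a high level in sup45-ts at 37°C.

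Rows outside the members held signal for the same genes. The unspliced row of COX5B had a mean of 448.69 TPM in sup45-ts at 37°C, and that of REC107, a meiotic recombination gene with an intron, had 42.585 TPM; both stood above their level in SUP45 at 25°C, 20.4 and 10.2 TPM.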

How the results depend on the processing

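The number of members was 128 with a lower limit of 0.5 TPM, 121 with an upper limit of 10 TPM, 129 with TPM scaled to the same median (added after the data were seen), and 209 to 226 with 1 library left out. The median CDS RPKM per TPM of members was 0.747 among those with at least 10 CDS footprints, 0.605 on FPKM, and 0.515 to 0.576 on a single RNA-Seq library. Summed CDS footprints fell to 15462 in SUP45 37°C, 1605 in sup45-ts 25°C and 1306 in SUP45 25°C without ADH2 and PDC6, as their own counts show. In sup45-ts 25°C against SUP45 25°C, the transcripts called were 18 with the replicate block, 118 by DESeq2, 0 with only the 4 libraries compared (where no member was called) and 1 to 150 with 1 library left out, the most without SUP45 25°C replicate 1 (members 0 to 2); the cause was not tested. With 1 library left out, SUP45 37°C against sup45-ts 25°C called 176 to 181 members and 4708 to 4799 transcripts. The ranges were 201 to 205 members and 4924 to 5064 transcripts for sup45-ts 37°C against SUP45 37°C. For SUP45 37°C against SUP45 25°C they were 175 to 181 and 4680 to 4872, and for sup45-ts 37°C against sup45-ts 25°C 217 to 218 and 5580 to 5676. A group left with 1 library was assumed to vary like the others. In SUP45 37°C against sup45-ts 25°C, YDL034W and DAN1 changed sign without sup45-ts 25°C replicate 2, with neither called before or after; with 1 library left out their log2 fold changes ran between -0.89 and 0.70 and between -0.058 and 1.10. Among the values of single named genes, 1347 kept their direction and their side of the threshold, 12 lost the call and 2 gained it; VBA3 passed in SUP45 37°C against sup45-ts 25°C only without SUP45 37°C replicate 2 (log2 fold change 4.56). Same-numbered libraries correlated in their deviations by -0.17 to 0.22. These values do not settle whether the numbers mark a shared culture or preparation. Apart from sup45-ts 25°C against SUP45 25°C, no count of calls moved by over 1.5 times with a replicate block. Without scaling factors the share of higher transcripts among those called was 78.0% in SUP45 37°C against SUP45 25°C, in place of 50.7%, and 71.3% in sup45-ts 37°C against sup45-ts 25°C, in place of 51.5%.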
